A study of Caenorhabditis elegans with 2 samples.

Results

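The small heat shock proteins of the nematode Caenorhabditis elegans are described here through 10 genes, hsp-12.1, hsp-12.2, hsp-12.3, hsp-12.6, hsp-16.1, hsp-16.2, hsp-16.41, hsp-16.48, sip-1 and hsp-43. They were chosen by name, and the probes are those whose systematic name leads to one of these genes. All 10 genes had probes, 31 in all out of 43579, and they are 10 of the 19804 genes that could be named on the array. Whole young adult worms of the N2 strain were measured, raised from hatching at 20 °C on Escherichia coli OP50, the usual laboratory food, or on a Lysinibacillus sphaericus isolated from soil, a Gram-positive bacterium. Each diet has 1 array of total RNA labelled with Cy3, so no test between the diets could be made, no p-value is given, and the spread between worm populations is unknown. In whole animals, fewer cells of a type and less RNA per cell cannot be told apart.

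Small heat shock proteins are a family built around an alpha-crystallin domain, and many of them are chaperones. These bind unfolding proteins without using ATP and hold them until the HSP70 system can refold them, and most form large assemblies. This need not hold for every member. In C. elegans the hsp-16 genes are the classical heat-inducible members, switched on by the heat shock factor HSF-1 and arranged in divergently transcribed pairs. The HSP-12 proteins are among the shortest members of the family. The gene hsp-12.6 is known as a target of both HSF-1 and DAF-16, the FOXO factor that insulin signalling restrains. SIP-1 is known from oocytes and embryos, and HSP-43 from cells of the vulva and the spermatheca.

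The values are processed signals, the background-subtracted brightness of a spot. No spot was saturated, and the brightest signal of a small heat shock probe was 304708 against a saturation value of 779121. Both arrays lay on the same slide and have the same scan time. All 31 probes carried the scanner's flag for a signal well above background in both diets, and a probe with that flag on both arrays is called measured here. The array of the L. sphaericus diet was the brighter one (75th percentile 3368, against 1439.6 with OP50), and each was therefore scaled on its own 75th percentile. All differences are log2 values of the L. sphaericus diet minus those of OP50, and a gene's difference is the median over its measured probes. Each carries a scanner error of about 0.20, computed from the error the scanner software gives for the 2 spots, which covers the reading of the spots and not the spread between worms.

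The differences covered a wide range. The genes hsp-12.6 and hsp-12.3 were far lower with L. sphaericus, at −5.93 and −4.29. The 4 heat-inducible hsp-16 genes lay between −1.62 and −0.96, values that depend on the scaling as given below. The genes hsp-12.1 and hsp-43 were higher, at 1.05 and 1.16. The remaining genes hsp-12.2 and sip-1 lay at −0.51 and −0.22, and the signs of both turn with the scaling. At the 2-fold level, a log2 difference of 1, 5 of the 10 genes were lower and 2 higher, where 32.6% of all 15298 measured genes were lower and 22.1% higher. The median of the 10 genes was −1.03, against −0.20 for all measured genes.

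**Figure D1:**
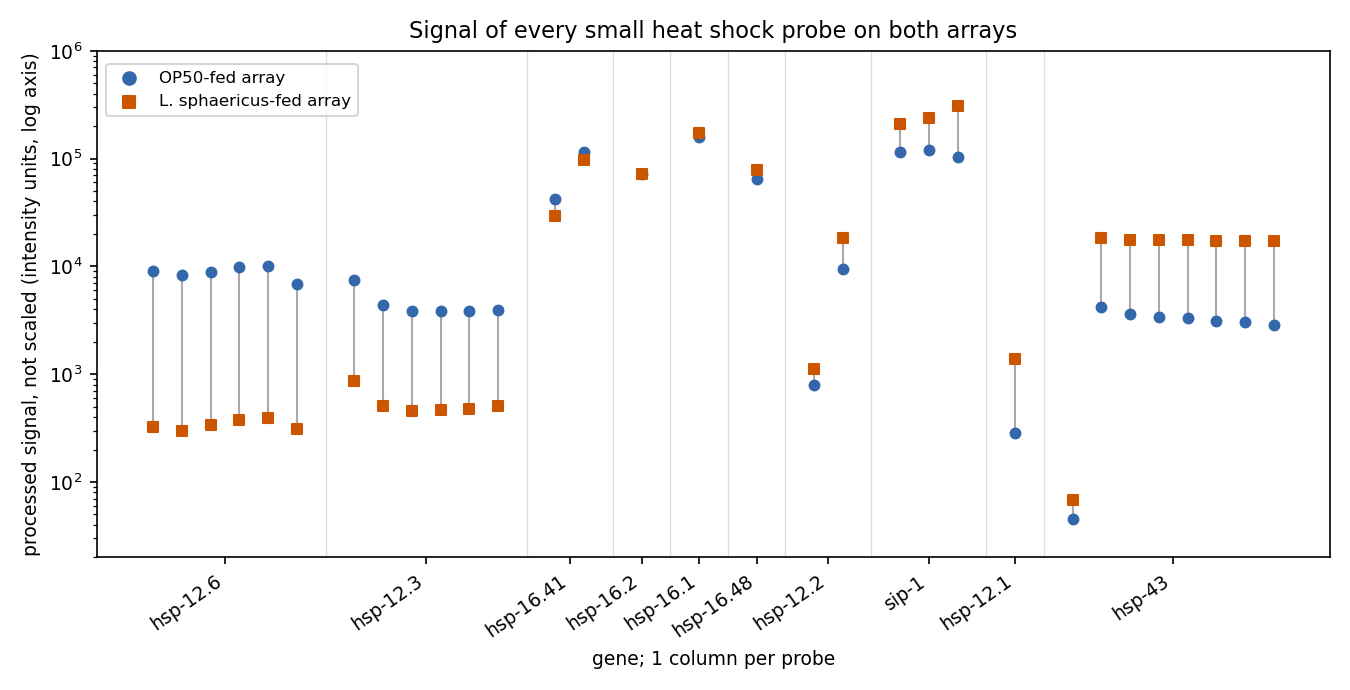
Processed signal, not scaled between arrays, on a log axis, with 1 column per probe and genes in the order of their difference. Circles are the OP50-fed array and squares the L. sphaericus-fed array. The squares lie far below the circles at every probe of hsp-12.6 and hsp-12.3, nearer to them at the 5 hsp-16 probes (below for hsp-16.41, on the circle for hsp-16.2, slightly above for hsp-16.1 and hsp-16.48), and above them at hsp-12.1, hsp-12.2, sip-1 and hsp-43.

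How the arrays are scaled decides part of this count. With the median of all probes as the reference, 2 members were lower and 2 higher (20.8% and 37.9% of all genes), and with the cytosolic ribosomal protein genes as the reference also 2 and 2 (16.9% and 42.8%). After loess centring 3 were lower and 1 higher (24.9% and 24.6%). Without any scaling 2 were lower and 3 higher (11.6% and 50.6%). Relative to the 75th percentile, these 4 settings moved the median of all genes by 0.64, 0.87, 0.29 and 1.23. Of the 13 settings tried in all, 4 shift every probe by a constant, which cannot change the order of genes, so the share of measured genes with a lower value is given beside each member. Higher genes made up 40.4% of all genes at least 2-fold apart with the 75th percentile, 64.6% with the median, 71.6% with the ribosomal reference, 49.7% after loess centring and 81.4% unscaled.

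The gene hsp-12.6, systematic name F38E11.2, encodes a short family member that has been linked to long life in worms with low insulin signalling. Its 6 probes read between 6850.1 and 10093 with OP50, with a median of 8925, and between 299 and 389 with L. sphaericus, with a median of 330.5. The ranges do not overlap, and the lowest OP50-fed probe stands far above the highest L. sphaericus-fed one. The difference was −5.93 ± 0.12 (SD over 6 probes), a 60.9-fold lower value, and single probes ranged from −6.03 to −5.70. Among the 15298 measured genes, 28 had a lower difference, which is 0.183%.

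The gene hsp-12.3, systematic name F38E11.1, is the next protein-coding gene to hsp-12.6 in the RefSeq gene table. Its 6 probes read between 3825 and 7537 with OP50 and between 452 and 865 with L. sphaericus, again without overlap. The difference was −4.29 ± 0.06 (SD over 6 probes), 19.5-fold lower, and 0.856% of measured genes lay lower still. The gap between the neighbours, 1.64, exceeds their joint scanner error of 0.29, and no probe of hsp-12.3 came as low as any probe of hsp-12.6. Both genes stayed at least 2-fold lower in all 13 settings tried, over −6.13 to −4.70 for hsp-12.6 and −4.49 to −3.06 for hsp-12.3. The protein-coding gene before the pair, F38E11.9, was at −0.69 on 1 probe, and the gene after it, cutl-17, had no measured probe.

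The other HSP-12 genes did not follow them. The gene hsp-12.1 read 285 with OP50 and 1377 with L. sphaericus on its single probe, a difference of 1.05 (2.07-fold higher), and 79.0% of measured genes lay lower. It stood above the median of all genes in all 13 settings, with differences from 0.85 to 2.27, though the 4 constant shifts cannot change that position. On a single probe, the filter, the probe summary and the source table also left its value at 1.05. It was at 0.89 with normexp background correction, 1.53 with quantile normalization and 1.56 after loess centring. Over the 8 settings of background correction and scaling, it was at least 2-fold higher in 6. The gene hsp-12.2 has 2 probes, one at 790 (789.5) and 1113, the other at 9542 and 18197 with OP50 and L. sphaericus. Its difference was −0.51 ± 0.31 (SD over 2 probes), with 43.5% of measured genes lower. The sign turned with the median of all probes, with the ribosomal reference and without scaling. The HSP-12 genes thus held both the lowest of the 10 differences and 1 of the 2 that were at least 2-fold higher.

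**Figure D2:**
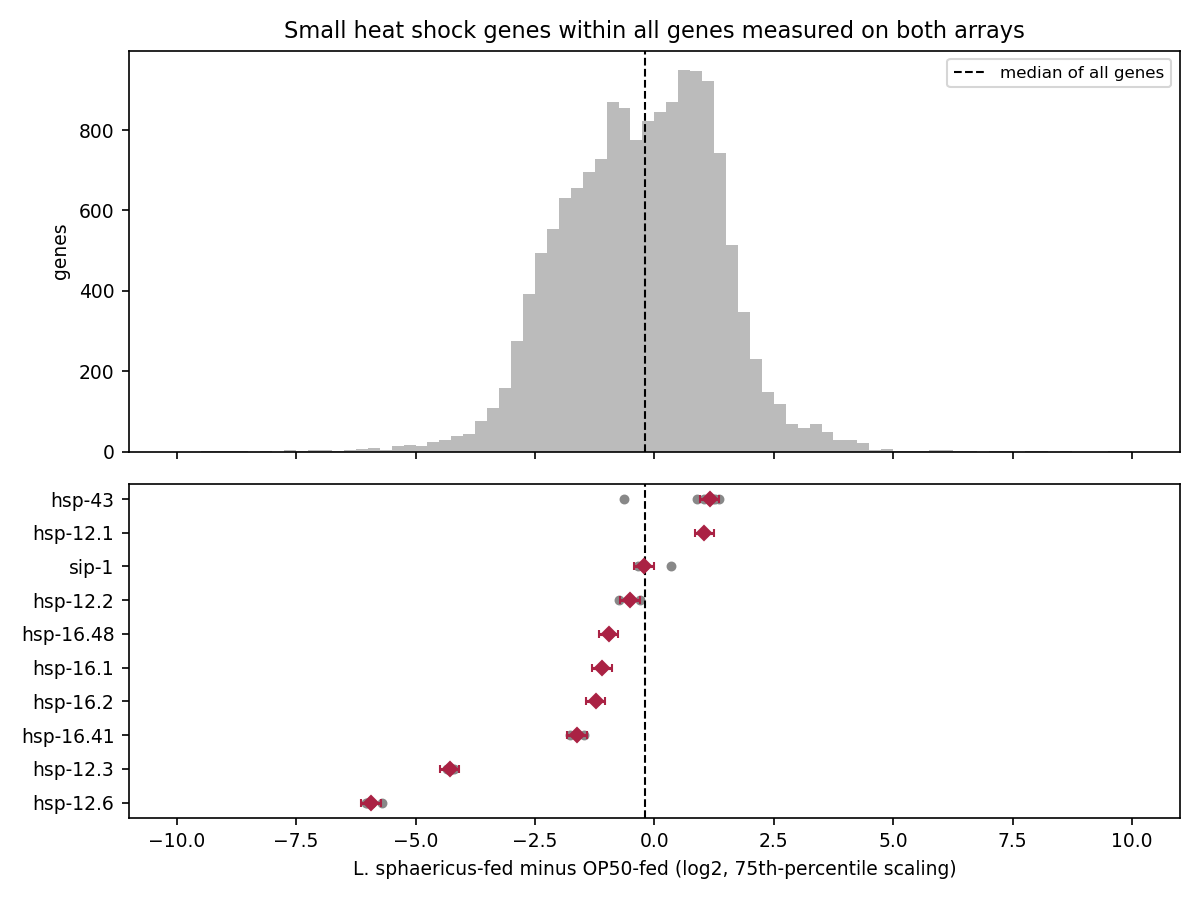
Top, the number of genes at each log2 difference (L. sphaericus-fed minus OP50-fed) over all genes measured on both arrays, with the median of −0.20 as a dashed line. Bottom, the 10 small heat shock genes on the same axis, with grey points for single probes, diamonds for the gene's median and bars for the scanner error. The genes hsp-12.6 and hsp-12.3 lie in the far lower tail, and the others within the bulk of all genes.

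The hsp-16 genes encode the heat-inducible HSP-16 proteins. In the RefSeq gene table they form 2 runs of neighbouring genes, hsp-16.2 beside hsp-16.41, and hsp-16.1, hsp-16.48, hsp-16.49 and hsp-16.11 in a row. The second run is an inverted duplication whose copies are nearly identical, and no probe was named for hsp-16.11 or hsp-16.49, so a probe named for hsp-16.1 or hsp-16.48 may read either copy. The probe sequences were not used here, so it cannot be said which copies each probe tells apart.

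The raw signals of the hsp-16 probes were large in both diets and, before scaling, less than 2-fold apart. The hsp-16.1 probe read 157091 with OP50 and 172187 with L. sphaericus. The hsp-16.2 probe read 72082 and 71894, and the hsp-16.48 probe 65179 and 78412. Both hsp-16.41 probes read lower with L. sphaericus, 114481 and 97017 for one and 42457 and 29179 for the other. The ratios of unscaled signals, L. sphaericus-fed over OP50-fed, were 1.096 for hsp-16.1, 0.997 for hsp-16.2, 1.203 for hsp-16.48 and 0.763 for hsp-16.41.

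Because most probes were brighter with L. sphaericus, these signals are negative differences once the arrays are scaled on the 75th percentile. They were −1.09 for hsp-16.1, −1.23 for hsp-16.2, −0.96 for hsp-16.48 and −1.62 ± 0.21 (SD over 2 probes) for hsp-16.41. The shares of measured genes lying lower were 30.7%, 28.2%, 33.4% and 21.2%, so none of the hsp-16 genes stood apart from the bulk of genes. Without scaling, hsp-16.1 and hsp-16.48 turned to 0.13 and 0.27, while all 4 genes lay below the median of all genes in all 13 settings. The 4 settings that shift every probe by a constant could not have changed that position. The background correction and the scaling are the choices that can move a gene read on a single probe. Over the 8 settings that differ in them, the 75th percentile included, the difference was at least 2-fold lower in 3 for hsp-16.1 and hsp-16.2, in 5 for hsp-16.41 and in 1 for hsp-16.48.

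The hsp-16 probes differed less among themselves than measured genes did at large. The 5 probes, which read 4 genes, spanned 0.81 on the log2 scale, from −1.77 to −0.96. Their SD was 0.32, where the SD over all measured genes was 1.61. These are unlike measures, over probes of related genes and over genes of every kind. The contrast does not measure agreement between copies. That SD of 0.32 was larger than the median SD between probes of the same gene, given with the processing. Of the 10 pairs of probes, 2 differed by over 2 joint scanner errors (0.29), both involving the dimmer hsp-16.41 probe, against hsp-16.48 and hsp-16.1. The hsp-16.1 and hsp-16.48 probes differed by 0.13, and those of hsp-16.1 and hsp-16.2 by 0.14, both within the scanner error. The 2 hsp-16.41 probes differed by 0.30. The protein-coding genes on either side of the row of hsp-16.1 copies, T27E4.7 and T27E4.1, were lower than the hsp-16 genes, at −2.06 and −3.18 over 3 probes each.

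The gene sip-1, systematic name F43D9.4, encodes a chaperone known from oocytes and embryos. Its 3 probes read 114698, 118966 and 102397 with OP50 and 211446, 238957 and 304708 with L. sphaericus, in the same order. Each probe was thus brighter with L. sphaericus, as was the array itself. The scaled difference was −0.22 ± 0.37 (SD over 3 probes), at the middle of all genes, with 49.5% lower. The first 2 probes were at −0.34 and −0.22 and the last, named for another transcript model of the gene, at 0.35. Over the 13 settings sip-1 ranged from −0.42 to 1.01, and the share of genes lower from 44.2% to 61.9%.

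Oocyte genes were higher in the same comparison. All 14 listed oocyte and early embryo genes were measured, and every one was over the 2-fold level on the higher side in each scaling, the lowest at 1.32 and the median at 2.42. Of all genes 22.1% were higher at that level, and 50.6% without scaling. The gene oma-2, needed for oocyte maturation, read 1970.5 with OP50 and 44062 with L. sphaericus (3.26). The gene chs-1, for a chitin synthase of the eggshell, read 2315 with OP50 and 48295 with L. sphaericus (3.16). The sip-1 value lies below the lowest of these 14 genes. Of 10 sperm genes, 8 were lower and 1 higher (32.6% and 22.1% of all genes), with a median of −2.01. Without scaling 4 were lower and 2 higher (11.6% and 50.6% of all genes). The furthest were spe-4 (−2.996), spe-38 (−2.74) and, on the other side, spe-44 (1.16). The part of these germline differences in the small heat shock values was not tested.

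The gene hsp-43, systematic name C14F11.5, encodes a longer family member found in vulva and spermatheca cells. Of its 8 probes, 7 read between 2885 and 4189 with OP50 and between 17109 and 18154 with L. sphaericus, without overlap. The remaining probe was dim, at 45.5 and 68.6, and went the other way, at −0.63 against 0.89 to 1.35 for the rest. The median over all 8 was 1.16 ± 0.65 (SD over 8 probes), 2.23-fold higher. Without the dim probe, left out after its value was seen, it was 1.17 ± 0.15 (SD over 7 probes). Of measured genes, 81.9% lay lower. The gene stood above the median of all genes in all 13 settings, between 0.84 and 2.39. The 4 constant shifts cannot move a gene across that median. It was at least 2-fold higher in 8 settings, of which 2, no dim-probe filter and the series table, repeat the main value. It fell under that level with quantile normalization (0.97), loess centring (0.84), the mean over probes (0.94) and the brightest probe (0.89). The 75th percentile over detected probes also gave less (0.96). The protein-coding genes on either side of hsp-43 in the gene table were also higher. C14F11.4 was at 0.95 over 3 probes, under the 2-fold level, and rml-3 at 1.38 on 1 probe. Neighbours of other members had both signs. F29C6.1 beside hsp-12.1 was at −0.95, and C14B9.2 and phka-1 around hsp-12.2 were at −0.34 and 0.30. The gene sly-1 beside sip-1 was at 0.82, and srt-42 beside the pair of hsp-16.2 and hsp-16.41 at −0.68.

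In order of difference, several neighbours were not set apart by the scanner error. The joint error of neighbouring genes was 0.29. The gaps were 0.14 between hsp-16.2 and hsp-16.1, 0.13 between hsp-16.1 and hsp-16.48, and 0.11 between hsp-12.1 and hsp-43. Between hsp-12.2 and sip-1 the gap, 0.293, was hardly wider than the joint error of 0.289, and their probes overlap. The widest gaps were 2.67 between hsp-12.3 and hsp-16.41, 1.64 between hsp-12.6 and hsp-12.3, and 1.27 between sip-1 and hsp-12.1. Among the 6 members with several probes, the probes of 4 shared 1 sign, the exceptions being hsp-43 and sip-1.

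**Figure D3:**
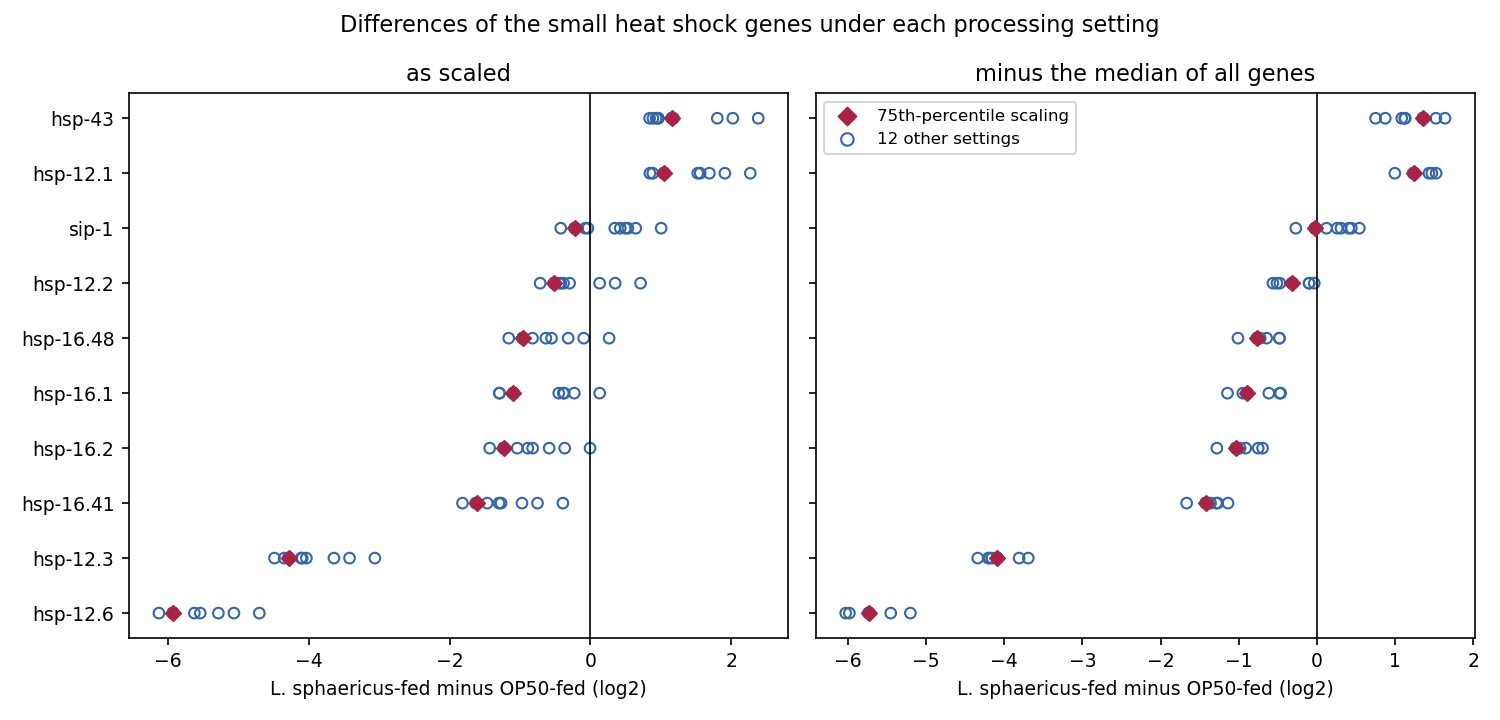
Log2 difference (L. sphaericus-fed minus OP50-fed) of each small heat shock gene under 13 processing settings, as scaled on the left and minus the median of all genes on the right. Diamonds are the 75th-percentile scaling and circles the 12 other settings. The genes hsp-12.6 and hsp-12.3 lie far below 0 in every setting, the hsp-16 genes lie below the median of all genes throughout, and sip-1 lies on both sides of it. The 4 settings that shift every probe by a constant cannot change the values on the right.

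Beyond the 10 genes, the list of other family members held 8, of which 6 were measured. F08H9.3 and F08H9.4, neighbouring genes that RefSeq now names hsp-16.20 and hsp-16.21, were as low as hsp-12.6. F08H9.3 read 3573 with OP50 and 141 with L. sphaericus, and F08H9.4 read 13653 and 545. Their differences were −5.89 and −5.87, each on a single probe, with 0.203% and 0.209% of measured genes lower, and neither turned in any setting (highest −4.67 and −4.65). The gene F08H9.2 before them was at −1.05 over 7 probes, and srz-97 after them had no measured probe. These genes carry the hsp-16 name in RefSeq, but their differences were over 4 log2 units below every hsp-16 gene of the heat-inducible pairs.

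The remaining family members varied less. The gene ZK1128.7 was at −1.54 ± 0.02 (SD over 3 probes). The muscle dense-body protein gene hsp-25, not heat-inducible, was at 0.16 ± 0.31 (6 probes), hsp-17 at 0.02 and Y55F3BR.6 at 0.34 on 1 probe each. The signs of hsp-17 and hsp-25 turned with the 75th percentile over detected probes. Over the whole family, 16 of 18 genes were measured, 8 were lower and 2 higher at the 2-fold level, where 32.6% and 22.1% of all genes were, and the median was −1.03. With the median of all probes 4 were lower and 2 higher (20.8% and 37.9% of all genes). Without scaling 4 were lower and 6 higher (11.6% and 50.6%), and the median turned to 0.20.

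Genes that set the heat shock response were measured too. HSF-1 drives the inducible chaperone genes, and HSB-1, DDL-1 and DDL-2 bind it and hold it inactive. The gene hsf-1 read 717 with OP50 and 3580 (3579.9) with L. sphaericus, a difference of 1.09. The inhibitor genes hsb-1 and ddl-1 were at 1.23 and 1.29, each on a single probe, and ddl-2 was at 0.21 ± 0.02 (SD over 2 probes). At the 2-fold level 3 of 4 were higher and 0 lower, where 22.1% and 32.6% of all genes were, and the median was 1.16. After loess centring 1 of 4 was higher (24.6% of all genes), and ddl-2 turned sign with normexp background correction.

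The cytosolic partners of the small heat shock proteins were mostly between the thresholds. Of 12 listed genes of HSP70, HSP90 and their co-chaperones, 11 were measured. At the 2-fold level 3 were lower and 0 higher, where 32.6% and 22.1% of all genes were. The median was −0.74, a sign that turned without scaling and with the ribosomal reference. With the median of all probes 1 was lower and 2 higher (20.8% and 37.9% of all genes), and without scaling 1 and 3 (11.6% and 50.6%). The stress-inducible gene hsp-70 (C12C8.1) was lowest, at 119141 with OP50 and 55805 with L. sphaericus, a difference of −2.32 on 1 probe. It was lower in all 13 settings, up to −1.09, and it is the only gene of this list whose unscaled signal was at least 2-fold lower.

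Next came hsp-90, the cytosolic HSP90 gene, at −1.63 ± 0.63 (SD over 4 probes) and F44E5.5, an inducible HSP70 gene with a near-identical neighbour, F44E5.4, that had no named probe, at −1.40 ± 0.57 (2 probes). The constitutive HSP70 gene hsp-1 was at −0.81 ± 0.05 (6 probes). The HSP110 gene hsp-110 was at −0.74, the HSP70-HSP90 adaptor gene sti-1 at −0.81, and the HSP40 genes dnj-13 and dnj-12 at −0.59 and −0.65. All of these but hsp-90 and F44E5.5 turned sign without scaling and with the ribosomal reference. On the higher side were cdc-37 (0.65), an HSP90 co-chaperone gene, the myosin chaperone gene unc-45 (0.25) and aip-1 (0.49), known to be induced by arsenite.

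Chaperone genes of the organelles lay nearer to all genes. Of 5 measured, 1 was over the 2-fold level on the higher side and 0 on the lower (22.1% and 32.6% of all genes). The median was 0.01, and without scaling 4 were higher and 0 lower (50.6% and 11.6% of all genes). The BiP gene hsp-4, a reporter of unfolded proteins in the endoplasmic reticulum, was at 1.07, and the second BiP gene hsp-3 at 0.01 ± 0.24 (9 probes), with a sign that turned with the 75th percentile over detected probes and with the brightest probe. The endoplasmin gene enpl-1 was at −0.14, turning sign with 5 scalings. The mitochondrial chaperone genes hsp-6 and hsp-60 were at −0.32 and 0.63 ± 0.20 (10 probes). The sign of hsp-6 turned with the median of all probes, with the ribosomal reference and without scaling.

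Of 12 genes of the insulin pathway and DAF-16 targets, a list that does not hold the small heat shock genes, 11 were measured. At the 2-fold level 7 were lower and 0 higher, where 32.6% and 22.1% of all genes were, around a median of −1.40. The 7 include daf-2, listed as a gene of the insulin pathway and not as a DAF-16 target, itself at −1.40 (7 probes). They also include old-1, at −1.11 on 1 dim measured probe (85.6 with OP50 and 92.8 with L. sphaericus). Without scaling 4 of the 11 genes were lower and 0 higher (11.6% and 50.6% of all genes). This list was drawn up with earlier results of these arrays known. The target gene dod-3 read 27351 with OP50 and 1056 with L. sphaericus, a difference of −5.92 on 1 probe. The metallothionein gene mtl-1 read 29107 and 1324, a difference of −5.68 on 1 probe. The superoxide dismutase gene sod-3 was at −2.77. For daf-16 the difference was −0.97 ± 0.35 (SD over 5 probes), and its sign turned without scaling. Of the 11 genes, 4 lay between the thresholds, daf-16, ctl-2 (−0.87), lea-1 (−0.47) and ctl-1, the highest, at −0.35. All 4 turned sign without scaling. The part of DAF-16 in the small heat shock values was not tested.

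**Figure D4:**
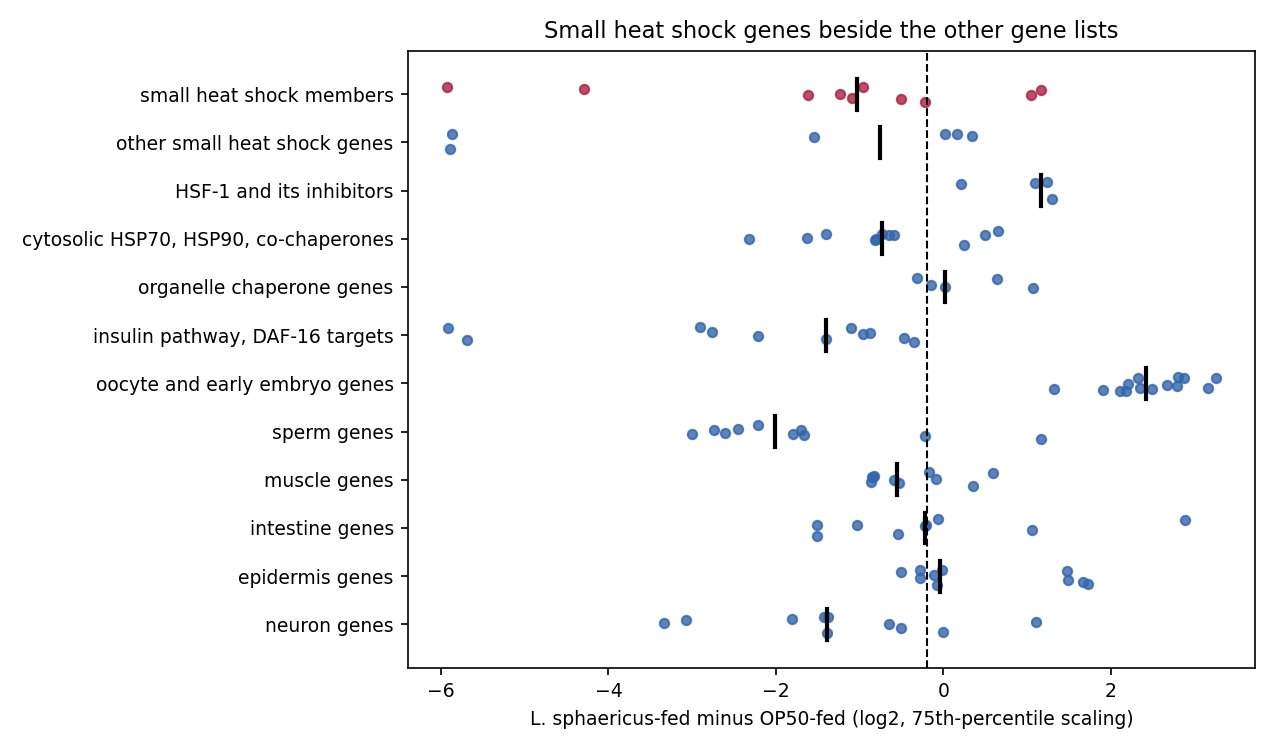
Log2 difference (L. sphaericus-fed minus OP50-fed, 75th-percentile scaling) of each measured gene in the listed groups, with 1 point per gene, a black bar for the list's median and a dashed line for the median of all genes. The small heat shock members and the other family genes spread over about 7 and 6 log2 units, while the oocyte genes all lie above 1.

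Markers of the body's tissues were present on both arrays. All 10 muscle, 10 epidermis and 10 neuron genes and 9 of 10 intestine genes listed were measured. Of all genes 32.6% were lower and 22.1% higher at the 2-fold level, and 11.6% and 50.6% without scaling. Of 10 muscle genes 0 passed the 2-fold level (median −0.56, 4 higher without scaling), the 2 brightest being the troponin I gene unc-27 (0.35) and the myosin light chain gene mlc-1 (−0.53). Of 9 intestine genes 2 were higher, pho-1 (2.88) and act-5 (1.06), and 3 lower, among them elt-7 and ges-1 (both −1.51), with a median of −0.23 (5 higher and 0 lower without scaling). Of 10 epidermis genes 4 were higher, led by col-19 (1.73) and lin-26 (1.66), and 0 lower (median −0.04, 7 higher without scaling). Of 10 neuron genes 1 was higher, unc-119 (1.11), and 6 lower, led by the neuropeptide processing genes egl-3 (−3.34) and egl-21 (−3.07), with a median of −1.39 (2 higher and 2 lower without scaling). The part of these tissue markers in the small heat shock values was not tested.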

How the data were processed

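Per the labels, total RNA of whole worms was labelled with Cy3, 1 array per diet. Per the file headers, the authors read the images with Agilent Feature Extraction 11.0.1.1, which gave the deposited intensity of each spot after background subtraction. The deposited series table holds the same intensity on a linear scale, not centred or scaled, within 0.01 log2 of the scanner values in 43567 (OP50) and 43571 (L. sphaericus) of the 43579 probes (column medians 246.7 and 369).

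Control spots and 36 outlier spots were left out, log2 was taken, repeated spots were averaged, and each array's 75th percentile was subtracted (Python 3.11.15, R 4.3.3, limma 3.58.1). Probes were named by systematic name through RefSeq genes of WBcel235, 34295 with a gene and 9284 without. The array design cites build ce4, so no coordinates are given. Of the listed names 1 was not in that table. The median SD of the difference was 0.10 over repeated spots (33 probes with at least 3) and 0.18 between probes (2761 genes with at least 3). Precision is limited by having 1 array a diet. The gene summary was tested on simulated data in which few genes changed, unlike here, so that test does not bear on the choice of scaling.

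The members and the lists (other small heat shock genes, HSF-1 and its inhibitors, cytosolic and organelle chaperones, insulin pathway and DAF-16 targets, oocyte, sperm, muscle, intestine, epidermis and neuron genes) were chosen with earlier results of these data known. Named are all members, all genes of the first 4 lists, and from each other list the 2 furthest in each direction at 2-fold or, with none, the 2 brightest, plus daf-16 and sod-3. Neighbouring genes and daf-2, old-1, lea-1, ctl-1 and ctl-2 were added after the values were seen. Protein, promoter and probe sequences were not analysed here. Alternatives changed the background correction, the scaling, the filter on dim probes, the probe summary, the source table and the fold threshold.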

Additional observations from a re-analysis of the deposited data

How the results depend on the processing

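The counts and the median of the members were recomputed under each alternative. The number of members at least 2-fold lower, 5, became 2 with the median of all probes, without scaling and with the ribosomal reference, and 3 after quantile normalization, after loess centring and at a 3-fold threshold, and 6 with the 75th percentile over detected probes and at a 1.5-fold threshold. The number at least 2-fold higher, 2, became 1 with normexp, quantile normalization, loess centring, the mean over probes and the brightest probe, and 0 with the 75th percentile over detected probes and at a 3-fold threshold. Of all genes 37.2% were lower and 17.2% higher with the detected probes, 21.7% and 9.87% at the 3-fold threshold, 42.0% and 32.5% at the 1.5-fold threshold, and 32.4% and 18.7% with normexp, while quantile normalization gave 3899 lower and 3977 higher genes of 15298. The members' median of −1.03 became −0.38 on scaling by the all-probe median, −0.51 with quantile normalization, −0.49 with loess centring, −0.16 with the ribosomal reference and 0.20 without scaling, where the difference of hsp-16.1 also turned to 0.13. A constant shift of all genes by construction explains the moves with the median, the 75th percentile over detected probes, the ribosomal reference and no scaling, and the 3-fold and 1.5-fold thresholds move a count by definition. With the probe summary the count moved through hsp-43, whose mean of 0.94 takes in its dim probe at −0.63 and whose brightest probe was at 0.89. With normexp it moved through hsp-12.1, which fell to 0.89. The cause of the moves with normexp, quantile normalization and loess centring was not tested. The deposited series table changed none of the counts. Removing the dim-probe filter could not change a member, since all 31 probes passed it. Normexp (offset 50) used the spot's median signal in place of the planned mean signal, a choice made after seeing the data. No paired analysis was possible because each diet has 1 array. Genes read on a single probe, 4 of the 10, have no check by a second probe.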

Other observations

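In some chaperone genes, probes of the same gene gave different values. These probes also differed in brightness, so transcript model and brightness cannot be told apart. For hsp-90, the 2 probes named for model C47E8.5.4 were at −2.12 and −2.11, and those named for C47E8.5.2 and C47E8.5.1 at −1.14 and −0.94. With OP50 the first 2 read 62229 and 15068, and the others 170999 and 184167. For hsp-25, the probe named for C09B8.6c.2 was at 0.91 and the other 5 between 0.07 and 0.20. With OP50 the probe at 0.91 read 5948 and the other 5 between 9398 and 11192. For F44E5.5, both named for the same model, the probes were at −1.80 and −0.996, and they read 42811 and 256156 with OP50.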
